A study of Mus musculus with 8 samples.

Results

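The 7 genes described here are Epcam, Tspan8, Cd9, Spint1, Spint2, St14 and Prss8. They encode membrane partners of claudin-7 and the protease and inhibitor system that controls EpCAM and claudin-7. They were taken by gene name from the array design, where 10 of 55681 non-control probes carry one of these names, and all 7 were among the 20016 genes tested. Expression was measured on 8 single-colour Agilent arrays, 1 per RNA sample, from 2 cm fragments of intestine of 129SV pups aged 3 days. The groups were claudin-7 knockout small intestine, wild-type small intestine, claudin-7 knockout large intestine and wild-type large intestine, with 2 arrays each, numbered 2 and 3 in the labels. The knockout was made by gene targeting, the pups had no treatment, and neither the deleted part of the gene nor pooling of pups is given in the labels. They also do not state which fragments came from the same pup, so the p-values measure the spread between these samples only.

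EpCAM is an adhesion protein of epithelial cells that binds claudin-7 directly and keeps it from being degraded. Matriptase, the product of St14, is a membrane serine protease that cuts EpCAM and so frees claudin-7 for degradation, and prostasin, the product of Prss8, is its membrane-anchored partner protease. The Kunitz-type inhibitors HAI-1 (Spint1) and HAI-2 (Spint2) hold matriptase and prostasin in check, and in humans inherited loss of EpCAM or of HAI-2 causes congenital diarrhoea with tufts of crowded enterocytes. Tspan8 and Cd9 encode tetraspanins, which gather adhesion proteins, EpCAM and claudin-7 among them, into membrane patches.

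The promoter letters of 3 members are shown because they share a motif. The E2 box CAGGTG is bound by zinc-finger repressors of epithelial genes such as Snail and Zeb proteins, and it was searched on both strands in the 250 bases before each RefSeq start (GRCm38.p6). The sequence table held 5 of the 7 members, and Epcam, Cd9 and Spint2 carried the motif while Spint1 and Tspan8 did not, against 17.2% of 32851 promoters of that length. Capitals mark the E2 box or its reverse complement CACCTG, and each sequence runs 5′ to 3′ on the strand of its gene.
Epcam, chr17:87635729-87635978, plus strand: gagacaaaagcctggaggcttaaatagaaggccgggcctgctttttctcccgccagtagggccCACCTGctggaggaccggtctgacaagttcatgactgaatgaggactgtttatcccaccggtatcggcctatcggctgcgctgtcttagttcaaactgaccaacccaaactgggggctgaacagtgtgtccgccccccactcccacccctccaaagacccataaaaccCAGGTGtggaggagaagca
Cd9, chr6:125494761-125495010, minus strand: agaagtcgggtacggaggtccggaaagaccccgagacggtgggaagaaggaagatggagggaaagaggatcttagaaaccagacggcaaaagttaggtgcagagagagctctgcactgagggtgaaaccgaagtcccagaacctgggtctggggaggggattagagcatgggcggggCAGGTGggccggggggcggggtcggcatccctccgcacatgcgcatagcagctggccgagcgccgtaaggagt
Spint2, chr7:29281978-29282227, minus strand: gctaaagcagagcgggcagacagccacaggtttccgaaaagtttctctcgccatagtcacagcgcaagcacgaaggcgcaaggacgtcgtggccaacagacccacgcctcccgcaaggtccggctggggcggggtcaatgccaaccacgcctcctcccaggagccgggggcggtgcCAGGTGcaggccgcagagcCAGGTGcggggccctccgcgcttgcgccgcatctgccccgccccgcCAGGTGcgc
Epcam held 2 matches, starting at -187 and -19 from the start, Cd9 held 1 at -73, and Spint2 held 3 at -74, -55 and -9. The GC box GGGCGG, which overlaps none of the E2 box letters, stood in 4 of the 5 promoters (all but that of Tspan8), against 32.7% of all promoters. The core TTTATG of CDX factors stood in 1 of the 5, that of Epcam, against 10.8%. A match is a run of letters and says nothing of whether a factor was bound.

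Levels are given as multiples of the 75th percentile of the signals on the same array (signals of 2642.5 to 3571.77), and differences as log2 values from a limma fit over all 8 arrays with Benjamini-Hochberg adjustment over all genes. Genes with an adjusted p below 0.05 are said to have passed. Replicate arrays correlated across genes at r of 0.980 to 0.991. Cldn7 itself read 4.62 and 1.92 times the 75th percentile in knockout small intestine, against 59.4 and 61.1 in wild-type small intestine. In large intestine it read 4.22 and 4.45 in knockouts and 52.0 and 47.3 in wild type. It was lower by 20.2-fold in knockout small intestine (adjusted p = 0.00795, limma) and by 11.4-fold in knockout large intestine (adjusted p = 0.0339, limma). The large intestine call was lost on leaving out any 1 of the 4 large intestine arrays (adjusted p of 0.0783 to 0.300), while the difference stayed between -3.58 and -3.45. The probe was well above background on every array, and whether it lies in the deleted part is not given in the labels.

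Markers of other cells moved with the groups, as the plot of the epithelial and smooth muscle lists shows. All 16 gut epithelial markers were detected on all 8 arrays, and their summed level was 513.6 to 685.1 in knockout small intestine, against 600.4 to 651.1 in wild-type small intestine. In large intestine the sum was 765.1 to 871.1 in knockouts and 630.9 to 642.6 in wild type. The 8 smooth muscle markers summed to 462.1 to 575.3 in knockout small intestine, against 166.7 to 302.5 in wild-type small intestine, and all 8 differences were above 0 (median 1.35, 1 passed). Fibroblast (5 of 5), endothelial (4 of 4), enteric neuron and glia (6 of 6) and mesothelial (3 of 3) markers were also above 0 in knockout small intestine, with medians of 0.97, 0.41, 1.89 and 1.64. In that order 3, 0, 4 and 2 of them passed in small intestine, where 6.41% of all genes passed as higher. The gut epithelial list had a median of -0.74 there, with 13 of 16 below 0, 4 that fell (Grhl2, Elf3, Cdx1 and Cdx2) and 1 that rose (Krt20). In large intestine all 16 were above 0 (median 0.36) and 1 passed, where 0.31% of all genes did. Smooth muscle (7 of 8), fibroblast (5 of 5) and endothelial (4 of 4) markers were below 0 there, with medians of -0.23, -0.35 and -0.36. So were enteric neuron and glia (5 of 6) and mesothelial (2 of 3) markers, with medians of -0.39 and -0.45. In knockout small intestine the median was -0.04 for leukocyte, 0.23 for squamous, 1.28 for platelet, -1.17 for liver and 0.03 for pancreas markers. The 4 platelet markers ran from -3.45 to 2.22, with 3 above 0 and 1 below, and 1 passed in each direction. The pancreas markers went both ways, and their sum was 0.351 to 0.895 in knockout small intestine, against 14.7 to 19.2 in wild-type small intestine, with Ctrb1 at -6.09 (adjusted p = 0.117). The squamous markers Krt4 and Dsg3 were well above background on 0 arrays.

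**Figure D1:**
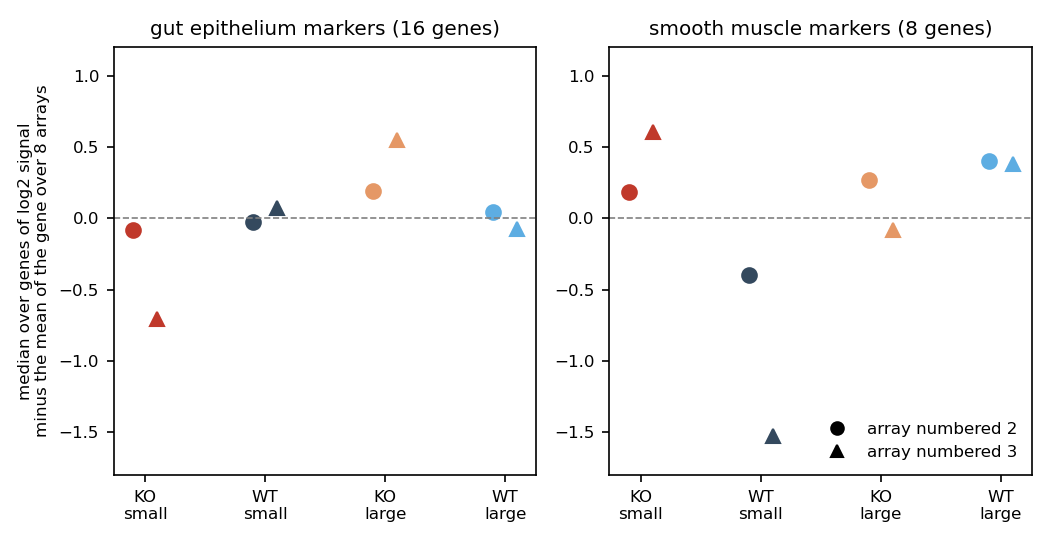
Median over the genes of each list of the log2 signal minus that gene's mean over 8 arrays, by group, with 1 point per array. The knockout small intestine array numbered 3 is lowest for epithelium (-0.70) and highest for smooth muscle (0.60), and the wild-type small intestine array numbered 3 is lowest for smooth muscle (-1.53).

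Some arrays stood apart. Both knockout arrays numbered 3 carried Xist (log2 levels of -2.42 and -2.43, against -7.46 to -6.25 on the other 6) and read Ddx3y, which is Y-linked, at -8.47 and -9.0, against 0.70 to 1.33 on the others. By these genes, those arrays read as female and the other 6 as male. Each knockout group thus mixed the sexes, while all wild-type arrays read as male. No fit held sex as a term, and its part in the knockout differences was not tested. With both knockout arrays numbered 3 left out, all arrays read as male. Alb, the liver gene for albumin, stood at 5.23 on the knockout large intestine array numbered 2, against -8.38 to -4.53 elsewhere. Amy2a5, for pancreatic amylase, stood at 2.05 on the knockout large intestine array numbered 3 and at 2.30 on the wild-type large intestine array numbered 2. Each group filled 1 column of the slide and each number 1 row, so slide column and group cannot be told apart.

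**Figure D2:**
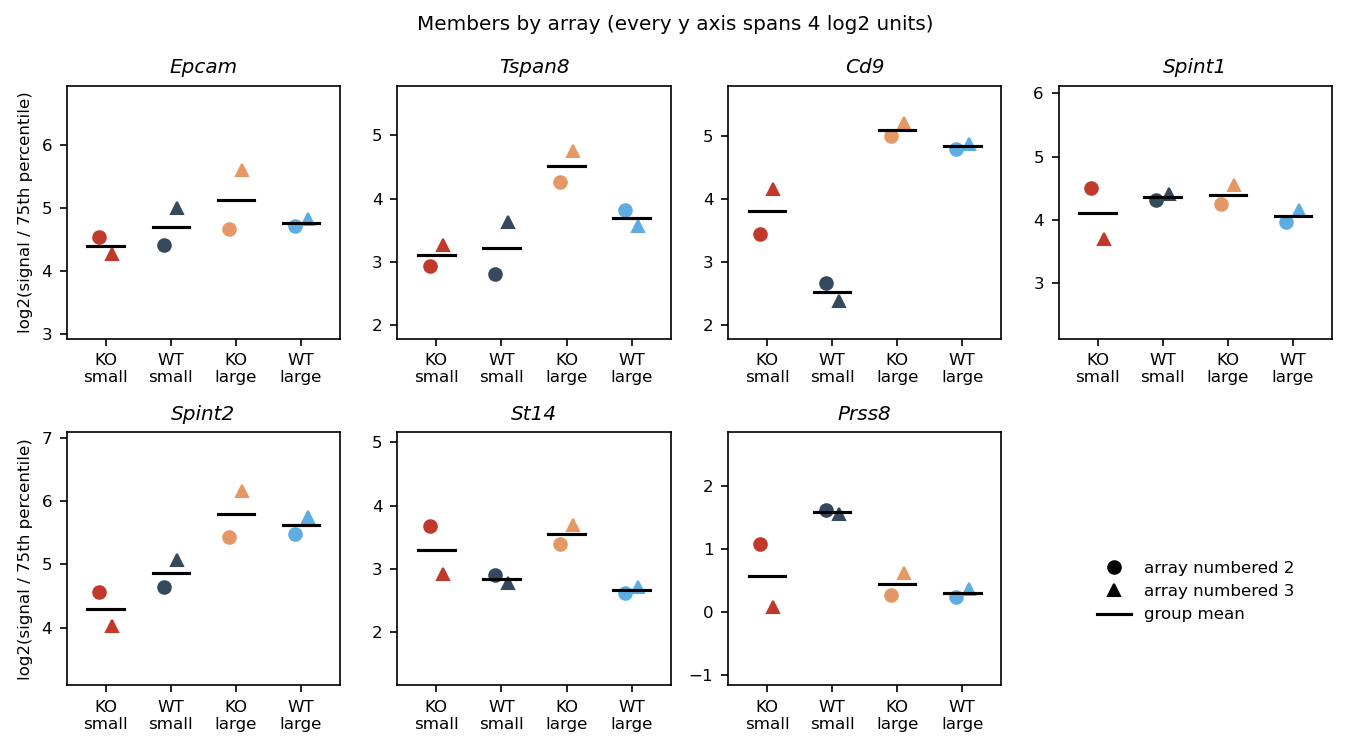
Level of each of the 7 genes on each of the 8 arrays, as log2 of signal over the 75th percentile of that array, with circles for arrays numbered 2, triangles for those numbered 3 and bars for the group means. Cd9 separates all 4 groups, while for Epcam the knockout and wild-type points overlap in both segments.

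Of the 7 genes, 1 passed for the knockout effect in small intestine (Cd9, higher), where 9.93% of all genes passed, 6.41% higher and 3.51% lower. With both knockout arrays numbered 3 left out, 0 of 7 passed there. In large intestine 0 of 7 passed in the limma fit, where 0.31% of all genes did. There 2 of 7 (St14 and Tspan8) had an unadjusted p under 0.05, as did 2645 of all 20016 genes. The member median was -0.26 in small intestine, against -0.10 over all genes, and 0.34 in large intestine, against 0.00 over all genes. Knockout and wild-type values did not overlap for 4 of 7 members in small intestine and for 4 of 7 in large intestine, against 59.3% and 55.3% of all genes.

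**Figure D3:**
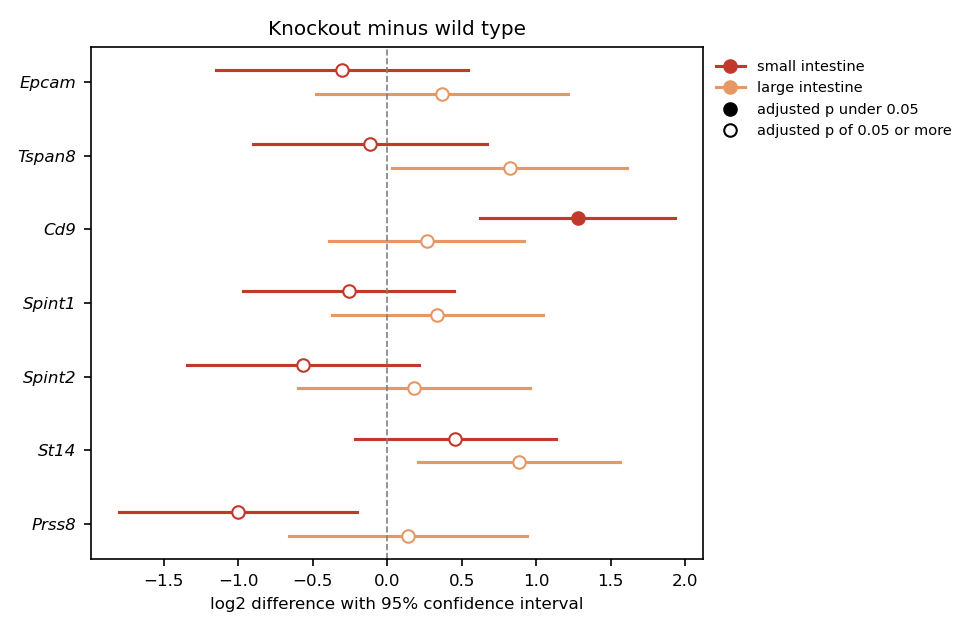
Knockout minus wild-type log2 difference of each gene in small and large intestine, with 95% confidence intervals from the limma fit, filled where the adjusted p was under 0.05. Cd9 in small intestine is the one filled point (1.28), and all 7 large intestine differences lie above 0, between 0.14 and 0.88. All 16 gut epithelial markers were also above 0 in large intestine (median 0.36). With arrays centred on those markers, Epcam, Cd9, Spint1, Spint2 and Prss8 lay below 0 there.

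Epcam passed in no comparison. It read 23.2 and 19.2 times the 75th percentile in knockout small intestine, against 21.2 and 32.0 in wild-type small intestine, and 25.4 and 48.3 in knockout large intestine, against 26.1 and 28.2 in wild-type large intestine. The groups overlapped in both segments, and the highest value came from the knockout large intestine array numbered 3. The differences were -0.30 ± 0.35 in small intestine (SE, 95% interval -1.15 to 0.54, adjusted p = 0.604) and 0.37 ± 0.35 in large intestine (-0.48 to 1.21, adjusted p = 0.666). Over both segments the difference was 0.03 ± 0.27 (interval -0.60 to 0.67). The intervals allow a difference in either direction, so equal levels are not shown. The 60-base Epcam probe maps to chr17:88048972-88049800 on mm9, a span of 829 bases, so its letters are split over the genome, and it is shown because it reads spliced transcript: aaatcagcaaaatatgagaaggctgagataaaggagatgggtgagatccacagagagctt.

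Tspan8 did not pass for the knockout in either segment. Its levels were 7.66 and 9.61 in knockout small intestine, against 6.99 and 12.3 in wild-type small intestine, which overlap. In knockout large intestine they were 19.2 and 27.1, against 14.1 and 11.8 in wild-type large intestine, with no overlap. The knockout difference was -0.11 ± 0.33 in small intestine (adjusted p = 0.844) and 0.82 ± 0.33 in large intestine (unadjusted p = 0.0429, adjusted p = 0.362), so neither passed. The difference between those effects was 0.94 ± 0.47 (adjusted p = 0.257).

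Cd9 rose in knockout small intestine. It stood at 11.0 and 17.8 times the 75th percentile there, against 6.37 and 5.20 in wild-type small intestine, and the higher of the knockout values came from the array numbered 3. The rise was 2.43-fold (95% interval 1.54 to 3.82, log2 1.28 ± 0.27, adjusted p = 0.0404). In large intestine Cd9 stood at 31.9 and 36.8 in knockouts, against 27.8 and 29.4 in wild type, a difference of 0.26 ± 0.27 (adjusted p = 0.689). The 4 groups ranked knockout large, wild-type large, knockout small and wild-type small intestine, and no neighbours in that order overlapped, though the first pair did not pass. The effect in large minus that in small intestine was -1.01 ± 0.39 (unadjusted p = 0.0359, adjusted p = 0.167), so a difference between segments did not pass.

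The Cd9 call rests on few arrays, and other cell types moved with it. Within the arrays numbered 2 the small intestine difference was 0.78, and within those numbered 3 it was 1.78. The call was lost on leaving out any 1 array other than the knockout small intestine array numbered 2, with adjusted p of 0.0581 to 0.186, and with both knockout arrays numbered 3 left out, when the difference was 0.93 (adjusted p = 0.179). Adjusted over all 38741 probes that were well above background, in place of 1 probe a gene, its p was 0.0515. Cd9 is also made by smooth muscle, and the smooth muscle sum followed the same order in small intestine (462.1 and 575.3 in knockouts, 302.5 and 166.7 in wild type). In large intestine Cd9 was higher in knockouts without passing, while 7 of 8 smooth muscle markers were below 0 (median -0.23). The smooth muscle sums in wild-type large intestine were 512.4 and 561.9. The part of muscle, or of the other cell types whose markers moved, in the Cd9 difference was not tested. In whole tissue, more cells of a type and more RNA per cell cannot be told apart.

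Neither inhibitor passed in either segment. Spint1 stood at 22.7 and 12.9 in knockout small intestine, against 19.8 and 21.2 in wild-type small intestine, and at 18.9 and 23.3 in knockout large intestine, against 15.6 and 17.8 in wild-type large intestine. Its differences were -0.26 ± 0.30 (adjusted p = 0.597) in small and 0.34 ± 0.30 (adjusted p = 0.638) in large intestine. Spint2 stood at 23.5 and 16.3 in knockout small intestine, against 25.0 and 33.5 in wild-type small intestine. The groups did not overlap there, and the difference was -0.57 ± 0.33 (adjusted p = 0.284). In knockout large intestine Spint2 stood at 43.3 and 71.3, against 44.6 and 54.0 in wild-type large intestine, a difference of 0.18 ± 0.33 (adjusted p = 0.828).

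Second probes of both inhibitors gave the same signs within each segment. The other Spint1 probe differed by -0.34 in small and 0.39 in large intestine, and the other Spint2 probe by -0.27 and 0.31. Overlap of the groups was not the same for the other Spint2 probe. It read 4.96 and 3.39 in knockout and 4.64 and 5.23 in wild-type small intestine, which overlap. In large intestine it read 7.98 and 9.88 in knockouts and 6.98 and 7.34 in wild type, with no overlap. The Spint1 probes overlap by 3 bases, at chr2:119074872-119074931 and chr2:119074929-119074988 on mm9, so they read neighbouring letters of the transcript. The Spint2 probes lie far apart, at chr7:30066532-30066591 and chr7:30041332-30041381.

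Matriptase transcript was higher on every knockout array of each segment but did not pass. St14 stood at 12.8 and 7.52 in knockout small intestine, against 7.44 and 6.85 in wild-type small intestine, and at 10.5 and 13.0 in knockout large intestine, against 6.13 and 6.52 in wild-type large intestine. Knockout values lay above wild-type values in both segments, though the knockout small intestine array numbered 3 (7.52) was close to the nearer wild-type array (7.44). The differences were 0.46 ± 0.28 in small intestine (adjusted p = 0.316) and 0.88 ± 0.28 in large intestine (unadjusted p = 0.0180, adjusted p = 0.286). Over both segments St14 differed by 0.67 ± 0.21, or 1.59-fold (unadjusted p = 0.0146, adjusted p = 0.199), and none of the 7 members passed there, against 0.629% of all genes. Over both segments 2 of the 7 (St14 and Cd9) had an unadjusted p under 0.05, as did 3030 of all 20016 genes.

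Prss8 had the most negative difference of the 7 members in small intestine and did not pass. It stood at 2.11 and 1.05 in knockout small intestine, against 3.05 and 2.92 in wild-type small intestine, and at 1.21 and 1.53 in knockout large intestine, against 1.18 and 1.28 in wild-type large intestine. The small intestine groups did not overlap and the large intestine groups did. The small intestine difference was -1.0 ± 0.34 (unadjusted p = 0.0213, adjusted p = 0.0956), and its second probe gave -1.14. It passed only when the knockout small intestine array numbered 2 was left out (-1.5, adjusted p = 0.0206), and it was -0.50 (adjusted p = 0.262) with both knockout arrays numbered 3 left out. The knockout small intestine array numbered 3, which had the lower Prss8 value, also had the lowest epithelial marker sum (513.6), and the part of this in the Prss8 value was not tested. The large intestine difference was 0.14 ± 0.34 (adjusted p = 0.870), and the effect in large minus that in small intestine was 1.14 ± 0.47 (unadjusted p = 0.0482, adjusted p = 0.191). No member passed the test of a difference between segments, against 0.14% of all genes. In it 2 of the 7 (Cd9 and Prss8) had an unadjusted p under 0.05, as did 5172 of all 20016 genes.

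**Figure D4:**
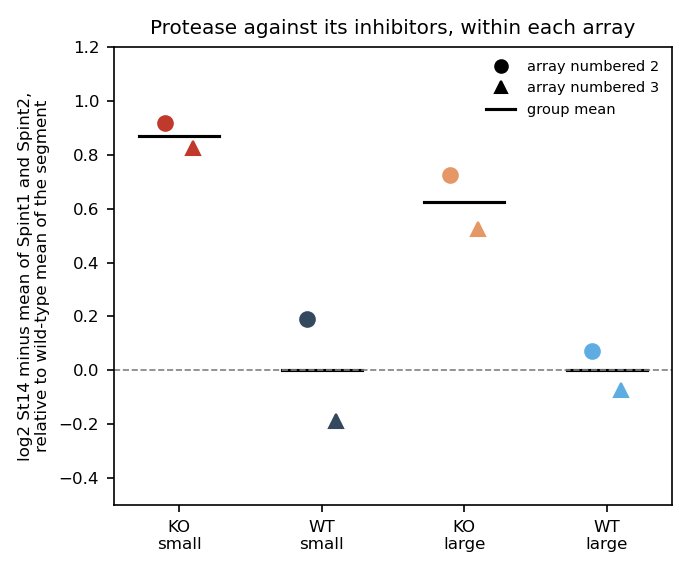
Log2 level of St14 minus the mean log2 level of Spint1 and Spint2 on the same array, relative to the wild-type mean of that segment, with 1 point per array and bars for group means. All 4 knockout points lie between 0.53 and 0.92, and all 4 wild-type points between -0.19 and 0.19. The measure was chosen after the values were seen.

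Set against its inhibitors on the same array, St14 stood higher in every knockout sample. This measure was chosen after the values were seen and carries no test, so a separation of the groups restates those values. It leaves out Prss8, which did not pass and differed by -1.0 in small and 0.14 in large intestine. The log2 level of St14 minus the mean of Spint1 and Spint2, taken relative to the wild-type mean of each segment, was 0.92 and 0.83 in knockout small intestine, against 0.19 and -0.19 in wild-type small intestine. In knockout large intestine it was 0.73 and 0.53, against 0.07 and -0.07 in wild-type large intestine. The groups did not overlap in either segment, which also held for 59.3% of all single genes in small and 55.3% in large intestine. The measure does not depend on how arrays are scaled by a constant. With the second probe of each inhibitor it was 0.83 and 0.69 in knockout small intestine and 0.50 and 0.56 in knockout large intestine. The mean was 0.87 ± 0.06 in knockout small intestine and 0.63 ± 0.14 in knockout large intestine (SD of the knockout arrays alone, n = 2 each). The wild-type SD was 0.27 in small and 0.10 in large intestine. Over all alternatives it lay between 0.68 and 1.06 in small and between 0.53 and 0.73 in large intestine.

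Large and small intestine were compared within each genotype, as the plot of large minus small intestine shows. Of the 7 members, 2 passed in wild type, against 19.9% of all genes (9.96% in each direction), and 3 passed in knockouts, all higher, against 16% of all genes (8.37% higher and 7.63% lower). Values of the segments did not overlap for 5 of 7 members in wild type and for 4 of 7 in knockouts, against 69.4% and 61.4% of all genes. Cd9 rose in wild-type large intestine, at 27.8 and 29.4 times the 75th percentile, against 6.37 and 5.20 in wild-type small intestine (4.96-fold, 2.31 ± 0.27, adjusted p = 0.00332). It also rose in knockout large intestine, at 31.9 and 36.8, against 11.0 and 17.8 in knockout small intestine (2.46-fold, 1.30 ± 0.27, adjusted p = 0.0247). Prss8 fell in wild-type large intestine by 1.28 ± 0.34 on the log2 scale, or 2.42-fold, with 1.18 and 1.28 there and 3.05 and 2.92 in wild-type small intestine (adjusted p = 0.0418). Between the knockout segments its difference was -0.13 ± 0.34.

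Markers of other cells also differed between the segments, and their part in these member differences was not tested. In wild type all 8 smooth muscle markers were above 0 in large minus small intestine (median 1.25, 4 passed), with sums of 512.4 to 561.9 in large intestine, against 166.7 to 302.5 in small intestine. In knockouts 2 of 8 were above 0 (median -0.31, none passed). Gut epithelial markers had a median of 0.66 in knockouts, where 7 of 16 rose, and of 0.09 in wild type, where 2 rose. All 4 endothelial markers fell between the knockout segments, and enteric neuron and glia (6 of 6) and mesothelial (3 of 3) markers were below 0 there, with medians of -1.02 and -1.33.

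Spint2 and Tspan8 passed between the knockout segments and not between the wild-type ones. Spint2 rose 2.84-fold in knockout large intestine, at 43.3 and 71.3, against 23.5 and 16.3 in knockout small intestine (1.51 ± 0.33, adjusted p = 0.0265), and its second probe gave 1.11. The wild-type difference was 0.76 ± 0.33 (adjusted p = 0.145). Tspan8 rose 2.66-fold in knockout large intestine (1.41 ± 0.33, adjusted p = 0.0337), against a wild-type difference of 0.47 ± 0.33 (adjusted p = 0.343). The differences between these differences are the segment tests given above for Tspan8 (adjusted p = 0.257) and, for Spint2, 0.74 ± 0.46 (adjusted p = 0.348). Epcam, Spint1 and St14 passed in neither genotype, with differences of 0.73, 0.29 and 0.25 in knockouts and of 0.06, -0.30 and -0.17 in wild type.

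**Figure D5:**
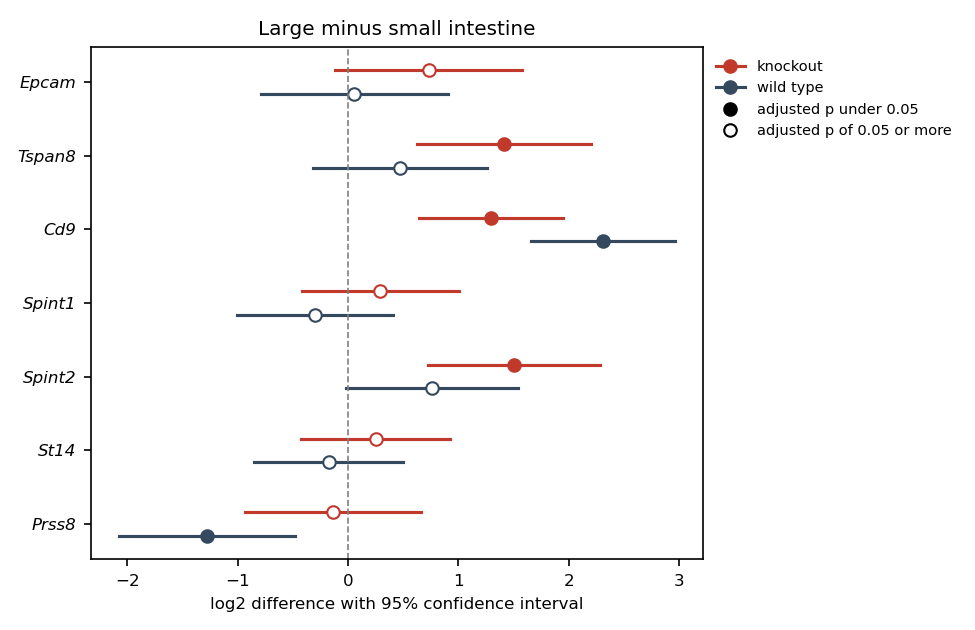
Large minus small intestine log2 difference of each gene in knockouts and in wild type, with 95% confidence intervals, filled where the adjusted p was under 0.05. Cd9 is filled in both genotypes (1.30 in knockouts, 2.31 in wild type), Spint2 and Tspan8 in knockouts only and Prss8 in wild type only.

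Most of these segment calls depended on single arrays. The Cd9 rise in wild type kept its call whichever array was left out (adjusted p of 0.00177 to 0.0338). The Prss8 call in wild type was lost on leaving out any 1 of the wild-type or knockout large intestine arrays or of the wild-type small intestine arrays (adjusted p of 0.0597 to 0.172). In knockouts, single omissions lost the Cd9 call in 5 of 8 cases (adjusted p of 0.0570 to 0.136), the Spint2 call in 4 (0.0564 to 0.140) and the Tspan8 call in 6 (0.0580 to 0.179). With both knockout arrays numbered 3 left out, Cd9 alone passed in knockouts (1.54, adjusted p = 0.0452), and Spint2 (0.88) and Tspan8 (1.33) did not.

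Among the 26 other tetraspanins and their partners, 2 rose and 1 fell in knockout small intestine, where the list median was 0.29 and that of all genes -0.10. Over all genes 6.41% passed as higher there and 3.51% as lower. Tspan5 (1.39 ± 0.25, adjusted p = 0.0340) and Tspan9 (1.26 ± 0.29, adjusted p = 0.0460) rose, and Tspan15 fell by 1.54 ± 0.33 on the log2 scale (adjusted p = 0.0400). Tspan5 and Tspan15 belong to the tetraspanins that carry the protease ADAM10 to the cell surface, and Tspan9 is known from platelets. Tspan5 stood at 1.60 and 2.54 in knockout small intestine, against 0.82 and 0.72 in wild-type small intestine, and Tspan15 at 1.82 and 1.5, against 3.64 and 6.35. The groups did not overlap for either gene. No gene of the list passed in large intestine, where 0.31% of all genes did. Smooth muscle, fibroblast, endothelial, enteric neuron and glia, and mesothelial markers were higher on the same knockout arrays as Tspan5 and Tspan9. The part of these cell types was not tested.

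Between the segments, Tspan33 and Tspan1 rose in large intestine of both genotypes. Tspan33, another carrier of ADAM10, was higher by 2.70 ± 0.23 in knockouts (adjusted p = 0.000864) and by 3.50 ± 0.23 in wild type (adjusted p = 0.000393). Tspan1 was higher by 4.05 ± 0.71 in knockouts (adjusted p = 0.0126) and by 3.36 ± 0.71 in wild type (adjusted p = 0.0220), with 112.3 and 127.3 times the 75th percentile in knockout large intestine. With 1 array left out, Tspan1 ranged from 3.13 to 4.97 in knockouts (adjusted p up to 0.0714) and from 2.51 to 4.21 in wild type (adjusted p up to 0.115). The knockout call was lost without the knockout large intestine array numbered 3. The wild-type call was lost without the wild-type small intestine array numbered 2 or either wild-type large intestine array. Tspan33 kept its calls under all alternatives. Tspan5 (1.08) and Tspan6 (0.90) rose in wild-type large intestine and Tspan18 fell by 1.13 in knockout large intestine, and each of these 3 calls was lost in some single omissions (adjusted p up to 0.143, 0.205 and 0.163). In all, 4 of the 26 rose in wild type, and 2 rose and 1 fell in knockouts. Over all genes 9.96% rose in wild type, and 8.37% rose and 7.63% fell in knockouts.

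Of 22 measured membrane serine proteases, inhibitors and substrates other than the members, 2 rose and 1 fell in knockout small intestine (list median -0.28). None passed in large intestine (median 0.26). Over all genes 6.41% rose and 3.51% fell in small intestine, and 0.31% passed in large intestine. Hgf, for hepatocyte growth factor, whose precursor matriptase can activate, rose by 1.72 ± 0.20 (adjusted p = 0.0163), with 0.195 and 0.237 in knockout small intestine, against 0.061 and 0.069 in wild type. Serpinb5, for the serpin maspin, rose by 3.75 ± 0.82 (adjusted p = 0.0423), with 0.155 and 1.08 in knockout small intestine, against 0.039 and 0.024. The 2 knockout values differ widely, and the rise was 2.35 with both knockout arrays numbered 3 left out (adjusted p = 0.115). Scnn1b, for a subunit of the epithelial sodium channel that prostasin activates, passed as lower (adjusted p = 0.0291), but it was not well above background on either knockout small intestine array and rose above it on 1 of 2 wild-type arrays. Its fitted difference was -0.21 with normexp background correction (adjusted p = 0.469) and -0.52 in the deposited table (adjusted p = 0.154), so no fold is given.

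Several genes of this list differed strongly between the segments. Folds given as "at least" divide the brighter mean by a floor, which is, on each array of the dimmer group, the lowest signal among probes well above background or the signal of the gene itself where that was higher. Scnn1b was at least 317.4-fold higher in knockout large than in knockout small intestine (adjusted p = 4.3e-05). Tmprss13, another membrane-anchored serine protease, was at least 198.9-fold higher in knockouts (adjusted p = 0.000138) and at least 498.0-fold higher in wild type (adjusted p = 8.76e-05), since neither small intestine group was above background. These bounds hold for the background correction of the scanner files. Over all alternatives the fitted log2 difference was 5.11 to 8.39 for Scnn1b in knockouts, and for Tmprss13 it was 4.06 to 8.13 in knockouts and 5.36 to 9.22 in wild type, and each call was kept. Hgfac, for an activator of hepatocyte growth factor that HAI-1 and HAI-2 inhibit, was higher by 3.63 ± 0.35 in knockouts and by 3.90 ± 0.35 in wild type. Met, for the receptor of hepatocyte growth factor, fell by 0.98 ± 0.23 on the log2 scale in wild-type large intestine (adjusted p = 0.0320, up to 0.163 with 1 array left out). In all, 6 genes of the list rose and 1 fell in each genotype, with medians of 0.60 in knockouts and 0.05 in wild type. Over all genes 8.37% rose and 7.63% fell in knockouts, and 9.96% passed in each direction in wild type.

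The 12 genes for EpCAM cleavage and signalling include ADAM proteases, subunits of gamma-secretase and partners of the freed EpCAM tail. Of them, 1 rose in knockout small intestine, where 6.41% of all genes did, and none passed in large intestine. That gene was Fhl2, whose product binds the EpCAM tail, with 17.5 and 24.6 in knockout small intestine, against 10.1 and 9.10 in wild-type small intestine (1.11 ± 0.23, adjusted p = 0.0392). Fhl2 is also a muscle gene, and the part of smooth muscle in this rise was not tested. Aph1b, a gamma-secretase subunit, fell in large intestine by 1.0 ± 0.26 in knockouts (adjusted p = 0.0446) and by 0.95 ± 0.26 in wild type (adjusted p = 0.0448). Each of these calls held in 11 of 21 alternatives, with values of -1.88 to -0.88 in knockouts (adjusted p up to 0.186) and of -2.10 to -0.63 in wild type (adjusted p up to 0.204). Lef1, a DNA-binding partner of beta-catenin, rose by 1.54 ± 0.38 in knockout large over knockout small intestine (adjusted p = 0.0403, up to 0.130 with 1 array left out). The list medians for the knockout were -0.32 in small and 0.21 in large intestine.

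Of the 8 other gut claudins, 1 fell in knockout small intestine, where 3.51% of all genes did, and none passed in large intestine. The list medians were -0.69 and 0.44. Cldn8 did not pass in small intestine, where its wild-type arrays numbered 2 and 3 read 0.019 and 11.8, against 0.015 and 0.100 in knockouts. Large intestine arrays read 13.3 to 16.9 for Cldn8. The cause of the high wild-type small intestine value was not tested. Cldn15, which forms sodium-permeable pores in small intestine, stood at 0.978 and 1.49 in knockout small intestine, against 6.26 and 6.0 in wild-type small intestine, and fell by 2.34 ± 0.24 on the log2 scale (adjusted p = 0.0119). The groups did not overlap. Cldn3, a sealing claudin, rose in large intestine by 2.13 ± 0.28 in knockouts (adjusted p = 0.00442) and by 1.32 ± 0.28 in wild type (adjusted p = 0.0223). Cldn1, Cldn2 and Cldn15 fell in wild-type large intestine by 2.49, 2.46 and 1.41, and Cldn23 rose by 1.48 in knockout large intestine. Each of these 4 calls was lost in at least 1 single omission (adjusted p up to 0.0510, 0.0541, 0.0870 and 0.178), as was that of Cldn3 in wild type (up to 0.124).

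The small intestine calls of these lists rest on few arrays. All 8 genes (Tspan5, Tspan9, Tspan15, Hgf, Serpinb5, Scnn1b, Fhl2 and Cldn15) lost the call in at least 1 single omission and with both knockout arrays numbered 3 left out. Without those arrays the differences were 1.05 for Tspan5, 1.11 for Tspan9, -1.40 for Tspan15, 1.58 for Hgf, 2.35 for Serpinb5, -1.61 for Scnn1b, 0.86 for Fhl2 and -2.65 for Cldn15 (adjusted p of 0.0575 to 0.195). Only that of Serpinb5 moved by more than 1.5 times in fold.

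Across the 8 arrays the members did not vary as one group. Pearson r over the 8 arrays was highest for Epcam with Spint2 (0.83), Tspan8 with Spint2 (0.80) and Epcam with Tspan8 (0.79), and lowest for Cd9 with Prss8 (-0.87). These values are descriptions over arrays that share group, slide and cell makeup. The genes most like each member by the same measure were Cdc42se1 (0.980), Tmx1 and Pithd1 for Epcam, Zcchc2 (0.994), Polr2h and Slain2 for Tspan8, and Arhgef10l (0.997), Ncmap and Serpinb5 for Cd9. For Spint1 they were Nhlrc3 (0.994), Timm10 and Scamp4, and for Spint2 Nt5c (0.992), Trmt11 and Krtcap3. For St14 they were Tmem154 (0.982), Arpc2 and Armt1, and for Prss8 Aldh16a1 (0.999), Ap1g2 and Mab21l4. Each was picked from the 20016 genes tested as 1 of the 3 highest by r over 8 points. Clone, predicted-locus, lincRNA, ribosomal protein, pseudogene and unnamed entries were passed over. No member was among the 3 genes most like another.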

How the data were processed

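RNA of 8 samples was labelled with Cy3 and read on 1 slide of Agilent mouse 8x60K arrays, with groups taken from the sample titles. The deposited scanner files give each spot's intensity after background subtraction by Agilent's Feature Extraction software (version 10.7.3.1, per the file headers), without scaling across the slide, and place probes on mm9. A deposited table of normalized intensity values served as an alternative. Its column medians were 158.06 to 160.06, its log2 values correlated with those of the same array at r of at least 0.991, and its background step is unknown. The submitters' processing notes name R 3.3.0, and no source used here gives further steps.

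For each array, log2 intensity minus the 75th percentile of its 59305 non-control spots was computed, leaving out spots with outlier flags and averaging spots of a probe. A probe was kept when both arrays of any group read it well above background. Genes were named through accession, symbol or older symbol in a GRCm38.p6 table used for names only, and the brightest probe stood for each gene. limma 3.58.1 (R 4.3.3) fitted 4 group means over all 8 arrays, with 4 residual degrees of freedom, or genotype plus segment for both segments, with Benjamini-Hochberg adjustment in each comparison. The fits were tested on simulated data.

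The text names all members and Cldn7 and up to 4 genes with the smallest p in each direction of each list. It also names the 3 genes most correlated with each member once the entries listed above were passed over. Members, gene lists and marker lists were chosen with earlier results of these data known. The balance of St14 and its inhibitors, Xist, Ddx3y, Alb, Amy2a5 and Cldn8 were picked after their values were seen. Promoters come from RefSeq. One gene of the tetraspanin list is counted but not reported here by name. The number of arrays limits precision. Alternatives included normexp background correction (offset 50), quantile normalization, the deposited table, other filters and probe rules, a trended robust prior, blocks, centring on the epithelial list (median deviation of its genes from their means) and arrays left out.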

Additional observations from a re-analysis of the deposited data

How the results depend on the processing

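Members that passed for knockout minus wild type in small intestine numbered 1, and 0 when arrays were centred on the epithelial markers, with no background filter, with the replicate number as a block, with only the compared groups fitted and, chosen after seeing the data, with both knockout arrays numbered 3 left out. Leaving out each array gave 0 to 2 there, 0 to 1 for the difference between segments, 1 to 2 for wild-type segments and 0 to 3 for knockout segments. Wild-type segments gave 1 with no background filter and 1 with the block. Knockout segments gave 1 under epithelial centring, 0 with only the compared groups and 1 without both knockout arrays numbered 3. Cldn7 missed the threshold in small intestine with only the compared groups (-4.34, adjusted p = 0.0764) and in large intestine with no filter (-3.52, adjusted p = 0.0569) and with the block (-3.52, adjusted p = 0.0722). Left-out arrays gave -3.58 to -3.45 in large intestine and -4.10 to -3.59 over both segments. The call over both segments was lost without either wild-type large intestine array. All genes that passed in small intestine numbered 1987, against 329 under epithelial centring, 487 with no filter, 1139 with the block, 35 with only the compared groups, 14 without both knockout arrays numbered 3 and 70 to 3827 with 1 array left out. In large intestine 62 passed, against 19 with no filter, 32 with probes above background on all arrays, 15 with the block, 121 with only the compared groups, 101 without both knockout arrays numbered 3 and 0 to 88 with 1 array left out. Over both segments 126 passed, against 84 with normexp, 84 with the deposited table, 29 under epithelial centring, 53 with no filter, 66 with the block, 779 with an animal as random block, 5 without both knockout arrays numbered 3 and 1 to 65 with 1 array left out. The other counts over all genes that moved by over 1.5 times were 5 for the difference between segments with probes above background on all arrays, against 28, 15 with no filter and 1 to 987 with 1 array left out, 2429 for wild-type segments under epithelial centring, against 3987, with 897 to 4976 when 1 array was left out, and 5935, 1581 and 1660 for knockout segments under centring, with only the compared groups and without both knockout arrays numbered 3, against 3204, with 1202 to 3073 when 1 array was left out.

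No called member changed sign under these alternatives, and every member difference that changed sign was one that had not passed. Epithelial centring, which moved the median of all genes to 0.31 in place of -0.10 in small intestine, to -0.38 in large intestine and to -0.79 between knockout segments, gave 0.11 for Epcam, 0.30 for Tspan8 and 0.15 for Spint1 in small intestine. It gave -0.015 for Epcam, -0.12 for Cd9, -0.047 for Spint1, -0.21 for Spint2 and -0.24 for Prss8 in large intestine. For the difference between segments it gave -0.12 for Epcam, -0.20 for Spint1, -0.052 for Spint2 and -0.37 for St14, and between knockout segments -0.029 for Epcam, -0.47 for Spint1 and -0.51 for St14. Quantile normalization gave -0.00014 for Spint2 in large intestine and, over both segments, -0.048 for Epcam and -0.0066 for Spint1, and the deposited table gave -0.029, -0.072 and -0.012. Without both knockout arrays numbered 3 the values were 0.15 for Spint1 in small intestine, -0.094 for Epcam, -0.18 for Spint2 and -0.028 for Prss8 in large intestine, -0.13 for Epcam over both, -0.11 for St14 between segments' effects, and -0.26 for Spint1 and -0.29 for St14 between knockout segments. Left-out arrays gave -0.52 to 0.29 for Tspan8 and -0.67 to 0.15 for Spint1 in small intestine, -0.094 to 0.83 for Epcam, -0.18 to 0.54 for Spint2 and -0.028 to 0.31 for Prss8 in large intestine, -0.22 to 0.22 for Epcam and -0.080 to 0.26 for Spint1 over both, -0.24 to 0.36 for Epcam between wild-type segments, and -0.11 to 0.70 for Spint1, -0.13 to 0.63 for St14 and -0.63 to 0.37 for Prss8 between knockout segments. The cause was not tested.

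The replicate block on the numbers 2 and 3, which the labels do not tie to animals, left Cd9 in small intestine at 1.28 with an adjusted p of 0.0527 and Prss8 between wild-type segments at an adjusted p of 0.0558, and changed no other member's call. It also ended the calls of Serpinb5 and Tspan9 in small intestine, of Aph1b between the segments of both genotypes and of Lef1 between knockout segments. Deviations of same-numbered arrays correlated across genes at 0.0077 to 0.262 over the 6 group pairs. Where 1 array is left out of a group, the lone one is assumed to vary like the other groups.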
